A study of Mus musculus with 12 samples.

Results

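The collagens are the proteins of the fibres, networks and sheets that hold a tissue together, and each is a trimer of alpha chains. Mouse genes for the chains are named Col, a number for the type, the letter a and a number for the chain. All genes whose only symbol in the array annotation had that form were taken, which gave 44 of 22180 genes measured, with the brightest probe set on average standing for each gene. The RefSeq gene table also held 44 such genes. The 44 genes cover the fibril-forming, fibril-associated, network-forming, microfibrillar and membrane-bound collagens.

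Fibril-forming collagens, chiefly types I and III in liver, are secreted as procollagens, trimmed outside the cell and packed into the fibres that accumulate in fibrosis. Fibril-associated collagens (FACIT) sit on the surface of those fibres, type IV collagen forms the network of basement membranes, and type VI collagen forms beaded microfibrils between cells and fibres. In injured liver the fibril-forming collagens are made mainly by hepatic stellate cells and portal fibroblasts, while hepatocytes are a known source of type XVIII collagen.

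Livers of 12 male C57BL/6 mice were profiled, 1 mouse per array, as total RNA labelled with biotin. AHNAK KO mice on high fat diet (HFD, 60% fat), wildtype (WT) mice on HFD, AHNAK KO mice on regular chow and WT mice on regular chow made up the 4 groups, with 3 mice in each. Mice were weight-matched between groups and fed for 8 weeks. Ahnak encodes a very large scaffold protein, and neither the deleted stretch of the gene, the cells that lack it nor the age of the mice is given in the sources used here. The comparisons were KO against WT on each diet, HFD against chow in each genotype, and the interaction, the difference of the genotype difference on HFD and on chow.

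The values are log2 signals, so that a difference of 1 is a 2-fold difference. Signals of different probe sets depend on the probes and are not compared between genes. A gene was termed near background where its mean over all 12 arrays was at most 5.60, the 95th percentile over 1088 olfactory receptor genes, a family hardly used in liver. A total of 34 collagen genes lay above that limit. The 10 near background were Col4a3, Col6a5, Col8a2, Col9a1, Col10a1, Col11a1, Col12a1, Col15a1, Col19a1 and Col28a1.

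Over all genes the 3 WT HFD arrays were set apart from the remaining 9, with scores of 30.0 to 32.3 against -18.5 to -3.95 on the first principal component. They form a whole group, so results that rest on them cannot be given without all of them. Leaving each array out singly is reported beside the calls it changes. The Ahnak probe set gave 6.46 to 6.62 in KO and 6.74 to 7.26 in WT livers on HFD, and 6.38 to 6.74 in KO and 6.50 to 6.83 in WT livers on chow. The ranges overlapped on chow, and since the position of the probes relative to the deletion is not known, this gene does not check the labels.

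On HFD, 5 collagen genes were lower in KO than in WT livers, and 1 was higher. The lower genes were Col1a1, Col1a2 and Col3a1, the chains of fibrillar types I and III, the FACIT gene Col14a1 and the type VI gene Col6a3. The higher gene was Col2a1, whose fibrillar product is best known from cartilage. In WT livers HFD gave higher levels of Col1a1, Col1a2, Col3a1, Col14a1, Col6a2, Col6a3 and Col4a1 than chow. No collagen gene passed the test between HFD and chow in KO livers, or between KO and WT on chow.

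A gene was called at a limma adjusted p under 0.05, with Benjamini-Hochberg adjustment over all 22180 genes within a comparison. The 5 lower genes are 11.4% of the 44 collagens, where 6.62% of all genes were called lower in KO than in WT livers on HFD. The 1 higher gene is 2.27%, against 3.89% of all genes. Arrays of KO livers were all below those of WT livers on HFD for 12 collagens, 27.3%, against 15.6% of all genes, and all above them for 3, 6.82%, against 13% of all genes. Over the 34 collagens above the background limit, the lower calls made 14.7%, against 9.92% of all genes above it. The median log2 fold change of the 44 collagens was -0.01, against 0.00114 over all genes, and the family ranged from -1.24 to 0.42. At an unadjusted p under 0.05 there were 11 collagens, 25% of the family, against 23.8% of all genes. Over the 34 collagens above the background limit the median was -0.02, against -0.01 for all genes above it. Over the 18 collagens above the median signal of all genes it was -0.22, against -0.02 for all genes above that median.

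**Figure D1:**
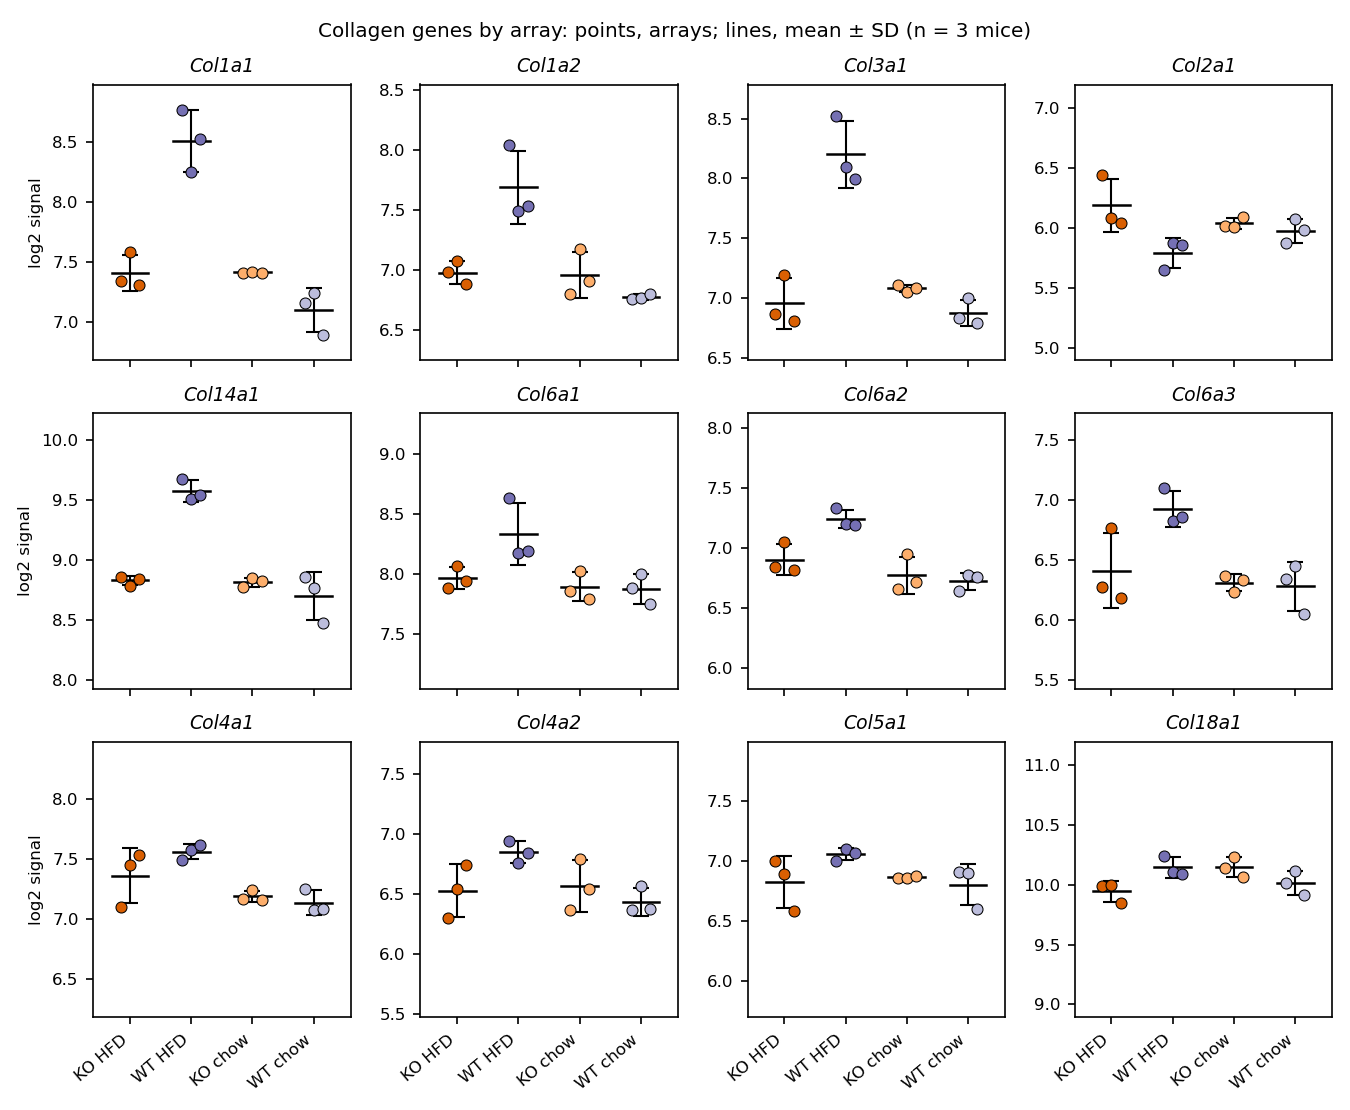
Log2 signal (vertical axes) of collagen genes on each of the 12 arrays, with KO HFD, WT HFD, KO chow and WT chow from left to right in each panel. Points are arrays and lines the mean ± SD of 3 mice; the 3 WT HFD points of Col1a1, Col3a1 and Col14a1 lie above all other 9 points.

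Type I collagen is made of the chains of Col1a1 and Col1a2, and it is the main collagen of fibrotic liver. Col1a1 had log2 signals of 7.35, 7.58 and 7.30 in KO HFD livers, 8.77, 8.25 and 8.52 in WT HFD livers, 7.41, 7.42 and 7.41 in KO chow livers and 7.16, 7.24 and 6.89 in WT chow livers. Every WT array on HFD was higher than the other 9, and the KO arrays on HFD overlapped those of KO on chow. Col1a1 was 2.15-fold lower in KO than in WT on HFD (adjusted p = 0.000379, limma with Benjamini-Hochberg adjustment). It was 2.67-fold higher on HFD than on chow in WT livers (adjusted p = 0.000108).

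The partner chain was likewise highest in WT livers on HFD, with a smaller difference. Col1a2 had log2 signals of 6.98, 7.07 and 6.88 in KO HFD livers, 8.04, 7.49 and 7.53 in WT HFD livers, 6.80, 7.17 and 6.91 in KO chow livers and 6.76, 6.76 and 6.80 in WT chow livers. The WT arrays on HFD again lay above the rest, and WT replicate 1 on HFD was the highest of them. The log2 fold change of Col1a2 was -0.71 ± 0.14 (SE) for KO against WT on HFD (adjusted p = 0.00697) and 0.91 ± 0.14 for HFD against chow in WT (adjusted p = 0.00259). A second probe set of Col1a2, with a mean of 4.57 and so near background, gave -0.93 (adjusted p = 0.000509) and 0.86 (adjusted p = 0.00138) when every probe set was tested.

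Type III collagen is a trimer of a single kind of chain, that of Col3a1, and shares fibres with type I. Col3a1 had log2 signals of 6.87, 7.20 and 6.81 in KO HFD livers, 8.52, 8.09 and 7.99 in WT HFD livers, 7.11, 7.05 and 7.09 in KO chow livers and 6.83, 7.00 and 6.80 in WT chow livers. The lowest WT array on HFD was higher than the highest of the other 9 arrays. Col3a1 was 2.37-fold lower in KO than in WT on HFD (adjusted p = 0.000205) and 2.5-fold higher on HFD than on chow in WT livers (adjusted p = 0.000226).

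The promoters of these genes are shown because their transcripts moved together. RefSeq windows of the 250 bases before the start (GRCm38.p6, plus strand, written 5′ to 3′) were taken for Col1a2 and Col3a1, while Col1a1 and Col14a1 are named only. Capitals mark CCAAT in Col1a2, at chr6:4505368-4505617, and TATAAA in Col3a1, at chr1:45311288-45311537.
Col1a2: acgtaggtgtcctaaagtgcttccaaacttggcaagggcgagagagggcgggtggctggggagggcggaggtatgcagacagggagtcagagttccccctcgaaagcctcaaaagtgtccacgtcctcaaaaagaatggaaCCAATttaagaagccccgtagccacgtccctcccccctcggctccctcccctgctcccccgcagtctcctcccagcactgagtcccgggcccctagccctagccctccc
Col3a1: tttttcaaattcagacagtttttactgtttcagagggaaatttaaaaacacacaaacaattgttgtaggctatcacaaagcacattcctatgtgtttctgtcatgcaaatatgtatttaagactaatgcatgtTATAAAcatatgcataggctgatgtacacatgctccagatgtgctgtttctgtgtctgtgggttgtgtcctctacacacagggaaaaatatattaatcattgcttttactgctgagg

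The capital run of Col1a2 begins 109 bases before the start, and that of Col3a1 begins 117 bases before it. Searched on both strands, CCAAT was held by 33.8% of the 32851 windows of that length and by 13 of the 35 collagen genes with a window. TATAAA was held by 12.4% of all windows and by 5 of the 35 collagen genes. GGGCGG was held by 32.7% of all windows and by 21 of the 35, including Col1a2, where it begins 205 and 188 bases before the start. Such matches describe the letters of the window and no bound factor. The shares of all windows count each window, while a collagen gene counted when any of its windows matched. These are unlike measures, and a gene with more windows has more places to match.

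The other fibril-forming chains are those of types II, V, XI, XXIV and XXVII. Type V collagen lies inside type I fibres and is known to set their width. Col5a1 had log2 signals of 7.00, 6.89 and 6.58 in KO HFD livers, 7.00, 7.10 and 7.07 in WT HFD livers, 6.86, 6.86 and 6.88 in KO chow livers and 6.90, 6.90 and 6.60 in WT chow livers. Its WT arrays on HFD were above the other 9 by so narrow a margin that KO replicate 1 on HFD equals the lowest of them at 2 decimals, and neither the genotype difference on HFD of -0.23 ± 0.11 (adjusted p = 0.243) nor the diet difference in WT of 0.25 ± 0.11 (adjusted p = 0.232) passed. A second Col5a1 probe set, with a mean of 5.52 and so near background, had the opposite signs, 0.08 (adjusted p = 0.771) and -0.11 (adjusted p = 0.73).

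Col5a2, the neighbour of Col3a1 in the order of protein-coding genes, did not pass in either comparison. It had log2 signals of 6.17, 6.19 and 6.15 in KO HFD livers, 6.44, 6.27 and 6.12 in WT HFD livers, 6.12, 6.16 and 6.00 in KO chow livers and 5.87, 6.05 and 6.02 in WT chow livers. The KO arrays on HFD overlapped the WT arrays on HFD, with a log2 fold change of -0.10 ± 0.10 (adjusted p = 0.565). In WT livers the difference between HFD and chow was 0.30 ± 0.10 (adjusted p = 0.0919), with arrays that did not overlap.

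Col2a1, the type II chain of cartilage, went the other way. It had log2 signals of 6.44, 6.08 and 6.04 in KO HFD livers, 5.65, 5.88 and 5.86 in WT HFD livers, 6.02, 6.01 and 6.09 in KO chow livers and 5.87, 6.07 and 5.98 in WT chow livers. The KO and WT arrays on HFD did not overlap, KO replicate 1 was the highest, and the group means of 5.80 to 6.19 were not far above the background limit. Col2a1 was 1.31-fold higher in KO than in WT on HFD (adjusted p = 0.0447). Omitting KO HFD replicate 3 or WT chow replicate 1 kept the call, while omitting any of the remaining 10 arrays ended it, and the adjusted p reached 0.158 when WT HFD replicate 1 was omitted. Among the settings that ended it too were array weights, quantile normalization and a fit of the compared arrays alone.

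In all, of 11 fibril-forming genes 3 were lower and 1 higher in KO than in WT on HFD, where 6.62% and 3.89% of all genes were called. On HFD against chow in WT livers 3 of the 11 were higher, where 4.02% of all genes were. The type XI, XXIV and XXVII chains, whose roles lie mainly in cartilage and bone, passed in neither comparison.

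**Figure D2:**
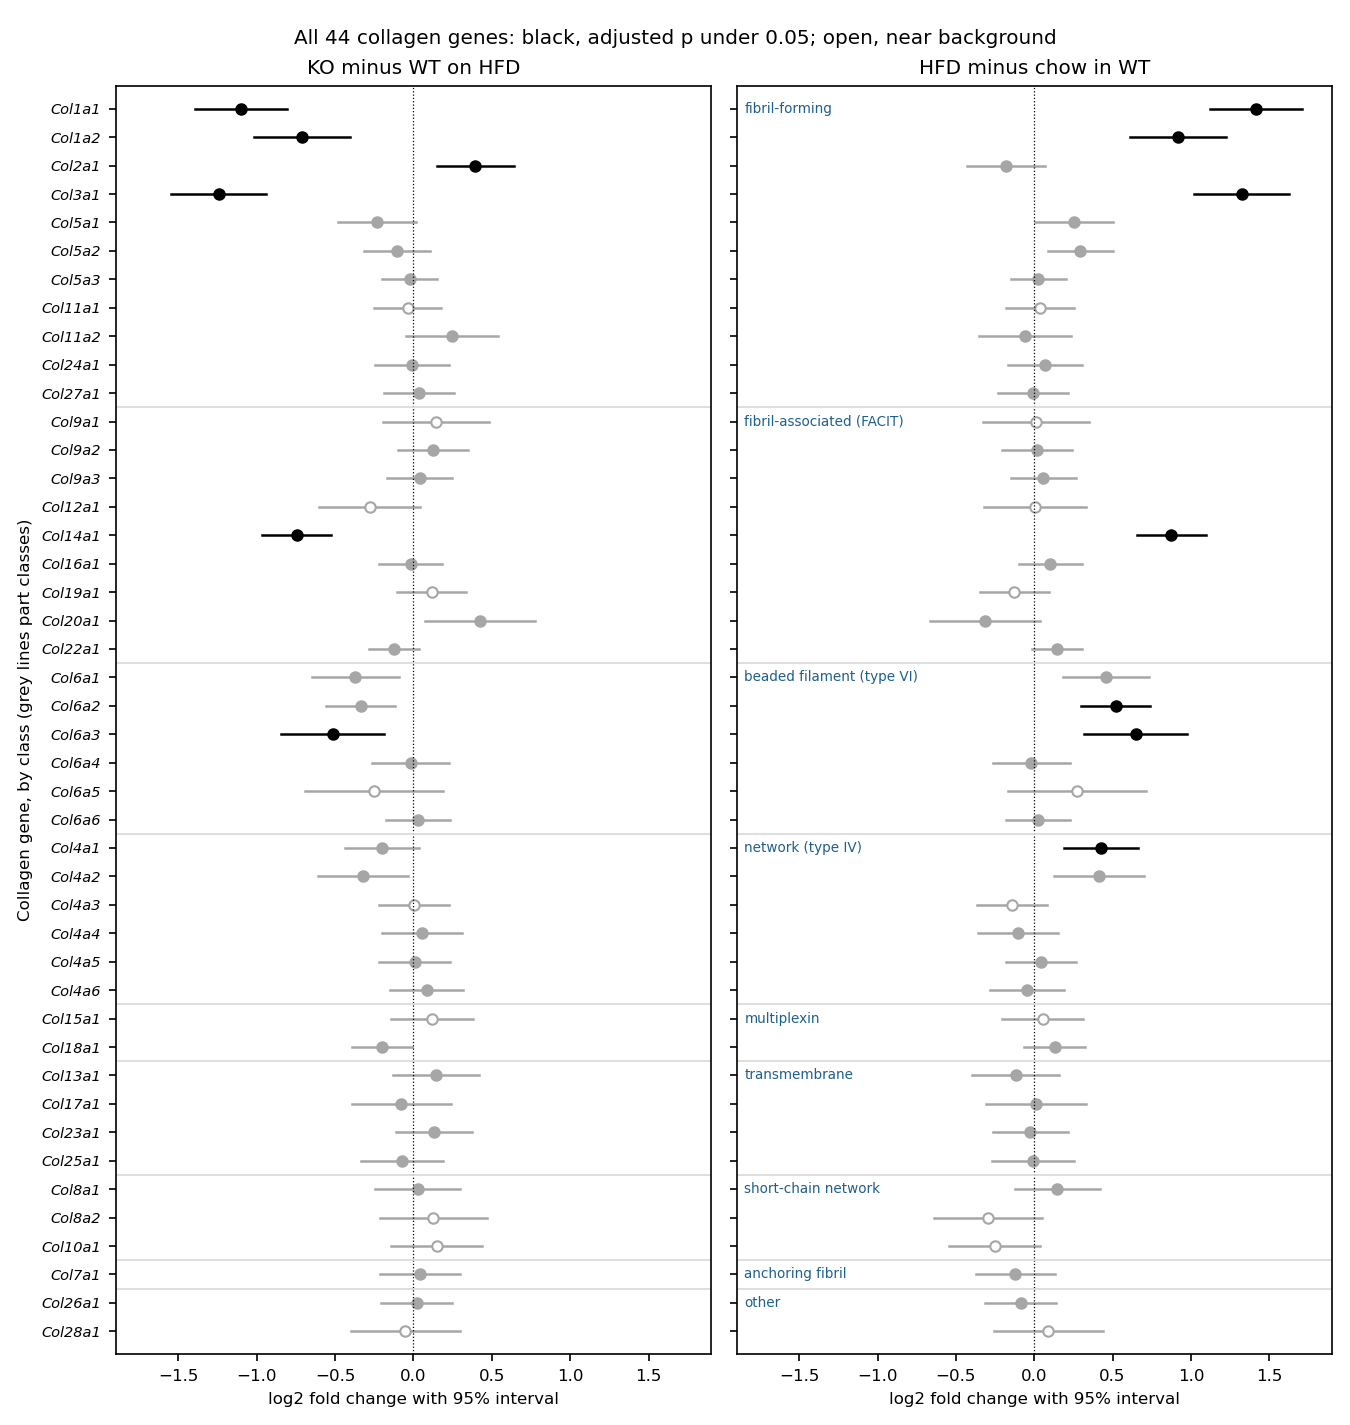
Log2 fold change with its 95% interval (horizontal axes) of all 44 collagen genes, ordered by collagen class, for KO minus WT on HFD (left) and HFD minus chow in WT (right). Black symbols passed an adjusted p of 0.05 and open symbols are near background; the black symbols sit among fibril-forming, FACIT, type VI and type IV genes.

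FACIT collagens have interrupted triple helices and bind to fibres. Of 9 measured genes of this class, 1 passed, Col14a1, whose product coats fibrils of type I collagen. Over all genes, 6.62% were lower in KO than in WT on HFD, and 4.02% were higher on HFD than on chow in WT. Col14a1 had log2 signals of 8.86, 8.79 and 8.84 in KO HFD livers, 9.68, 9.51 and 9.54 in WT HFD livers, 8.77, 8.85 and 8.82 in KO chow livers and 8.86, 8.77 and 8.47 in WT chow livers. The gap between the WT arrays on HFD and the other 9 was wider than the spread within any of the groups. Col14a1 was 1.68-fold lower in KO than in WT on HFD (adjusted p = 0.000747) and 1.83-fold higher on HFD than on chow in WT livers (adjusted p = 0.000426). Col21a1, also a FACIT gene, was not analysed here.

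Among the FACIT genes that did not pass, Col20a1 had the largest fold change for KO against WT on HFD, 0.42 ± 0.16 (adjusted p = 0.126). Its arrays did not overlap, at 6.15, 6.35 and 6.28 in KO on HFD and 5.57, 5.90 and 6.04 in WT on HFD. Col12a1, a close relative of Col14a1 and here near background, had 5.47, 5.17 and 5.44 in KO HFD livers, 5.82, 5.63 and 5.47 in WT HFD livers, 4.94, 5.12 and 5.07 in KO chow livers and 5.28, 5.81 and 5.82 in WT chow livers. Its KO arrays were below the WT arrays on both diets, but neither difference passed, with -0.28 ± 0.15 on HFD (adjusted p = 0.287) and -0.59 on chow (adjusted p = 0.355). On HFD the margin was very narrow, with the highest KO and the lowest WT array both at 5.47.

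Type VI collagen is a trimer of the chains of Col6a1, Col6a2 and Col6a3, and Col6a4, Col6a5 and Col6a6 encode chains that can take the place of the last. Col6a1 and Col6a2 lie next to each other in the order of protein-coding genes. Over the 6 genes, 5 had negative fold changes for KO against WT on HFD and 1 passed, with a median of -0.29. Of all 22180 genes, 11042 had negative fold changes and 6.62% were called lower, with a median of 0.00114.

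Col6a3 encodes the longest of the usual chains. It had log2 signals of 6.27, 6.77 and 6.18 in KO HFD livers, 7.10, 6.82 and 6.85 in WT HFD livers, 6.36, 6.23 and 6.33 in KO chow livers and 6.34, 6.45 and 6.05 in WT chow livers. KO replicate 2 on HFD came close to the WT arrays, while the other 2 KO arrays on HFD were at the level of the chow arrays. Col6a3 was 1.43-fold lower in KO than in WT on HFD (adjusted p = 0.0493) and 1.57-fold higher on HFD than on chow in WT livers (adjusted p = 0.0237). Omitting KO HFD replicate 2 or WT chow replicate 3 kept the genotype call, while omitting any of the remaining 10 arrays ended it, and the adjusted p reached 0.166 when WT HFD replicate 1 was omitted. Array weights, quantile normalization, a test of every probe set and a fit of the compared arrays alone were among the other settings that ended it. The diet call was lost without any WT HFD array or without WT chow replicate 1 or 3, with an adjusted p of up to 0.0975.

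Its usual partner chains were also highest in WT livers on HFD. Col6a2 had log2 signals of 6.84, 7.05 and 6.82 in KO HFD livers, 7.33, 7.20 and 7.19 in WT HFD livers, 6.66, 6.95 and 6.72 in KO chow livers and 6.64, 6.77 and 6.76 in WT chow livers. All WT arrays on HFD exceeded the other 9, and Col6a2 was 1.43-fold higher on HFD than on chow in WT livers (adjusted p = 0.00936). The genotype difference on HFD was -0.34 ± 0.10 and did not pass (adjusted p = 0.0523).

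Col6a1 had log2 signals of 7.88, 8.07 and 7.95 in KO HFD livers, 8.64, 8.18 and 8.20 in WT HFD livers, 7.86, 8.03 and 7.79 in KO chow livers and 7.88, 8.00 and 7.75 in WT chow livers. WT replicate 1 on HFD stood above the other 2 of its group, which were just above the remaining 9 arrays. Col6a1 passed neither for KO against WT on HFD (-0.37 ± 0.13, adjusted p = 0.0906) nor for HFD against chow in WT (0.46 ± 0.13, adjusted p = 0.0506). A second probe set gave -0.46 (adjusted p = 0.0772) and 0.36 (adjusted p = 0.202).

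Type IV collagen is the scaffold of basement membranes, and its usual trimer joins the chains of Col4a1 and Col4a2, which are neighbouring genes. No type IV gene of 6 passed for KO against WT on HFD, and 1, Col4a1, passed for HFD against chow in WT. Over all genes, 10.5% passed in the first comparison and 6.96% in the second, in either direction. Col4a1 had log2 signals of 7.10, 7.45 and 7.53 in KO HFD livers, 7.49, 7.58 and 7.62 in WT HFD livers, 7.16, 7.24 and 7.16 in KO chow livers and 7.25, 7.07 and 7.08 in WT chow livers. The KO and WT arrays on HFD overlapped, and KO replicate 1 on HFD was at the level of the chow arrays.

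Col4a1 was 1.34-fold higher on HFD than on chow in WT livers (adjusted p = 0.0365). The genotype difference on HFD was -0.20 ± 0.11 (adjusted p = 0.298). The diet call was kept in 4 of the 12 fits without 1 array and lost without any WT HFD array, any KO chow array, or WT chow replicate 2 or 3, with an adjusted p of up to 0.118. Centring arrays on their medians was among the other settings that ended it.

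Col4a2 had log2 signals of 6.30, 6.54 and 6.74 in KO HFD livers, 6.94, 6.76 and 6.84 in WT HFD livers, 6.36, 6.79 and 6.54 in KO chow livers and 6.37, 6.57 and 6.37 in WT chow livers. The KO and WT arrays on HFD lay side by side without overlap. Neither the genotype difference on HFD of -0.32 ± 0.13 (adjusted p = 0.157) nor the diet difference in WT of 0.41 ± 0.13 (adjusted p = 0.0843) passed.

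Types XV and XVIII, the multiplexins, are proteoglycans of basement membrane zones, and type XVIII carries endostatin at its end. Col18a1 had log2 signals of 9.99, 9.99 and 9.85 in KO HFD livers, 10.24, 10.10 and 10.09 in WT HFD livers, 10.14, 10.23 and 10.07 in KO chow livers and 10.01, 10.11 and 9.91 in WT chow livers. Here the KO HFD arrays lay below those of WT on HFD and of KO on chow and overlapped those of WT on chow. The difference was -0.20 ± 0.09 (adjusted p = 0.194) against WT on HFD and -0.20 (adjusted p = 0.565) against KO on chow, and neither passed.

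Col15a1, near background, had 5.87, 5.75 and 5.52 in KO HFD livers, 5.44, 5.78 and 5.57 in WT HFD livers, 5.66, 5.37 and 5.59 in KO chow livers and 5.48, 5.54 and 5.61 in WT chow livers. Its 4 groups overlapped. The transmembrane, short-chain, anchoring and remaining collagens gave no call in any of the 5 comparisons. They include Col17a1 and Col7a1, known from the attachment of skin, and Col8a1, Col8a2 and Col10a1, which form hexagonal networks. Col10a1 was called lower on HFD than on chow in WT in a single setting, without WT HFD replicate 3 (-0.43 ± 0.10, adjusted p = 0.0337), and is near background.

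Across the diet contrast in WT livers, 7 collagen genes were higher on HFD, 15.9% of the 44, where 4.02% of all genes were called higher and 6.96% in either direction. None was lower by limma, against 2.94% of all genes, and at an unadjusted p under 0.05 the family had 11 genes, 25%, against 20.6% of all genes. Over collagens above the background limit the higher calls made 20.6%, against 5.98% of all genes above it. Arrays on HFD were all above those on chow for 12 collagens, 27.3%, against 14.2% of all genes, and all below for 1, Col8a2, against 12.2%. The median over the 44 was 0.03, against 0.00334 over all genes. Over the 18 collagens above the median signal it was 0.33, against 0.00282 for all genes above that median.

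The same diet contrast in KO livers gave 0 calls in either direction by limma, with 1 gene, Col18a1, at an unadjusted p under 0.05, 2.27% of the family against 8.51% of all genes. Of all genes, 0.0857% were called higher and 0.158% lower on HFD in KO, and arrays did not overlap for 2 collagens with HFD higher, against 6.99% of all genes, and for 1 with HFD lower, against 6.79%. The 7 genes called in WT had log2 fold changes of -0.13 to 0.17 between HFD and chow in KO, with adjusted p of 0.709 to 0.998 and 95% intervals within -0.43 to 0.43. For Col1a1 the interval in KO was -0.29 to 0.29, and for Col3a1 it was -0.43 to 0.18. Changes of the size measured in WT, 1.42 and 1.32, lay outside these intervals.

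**Figure D3:**
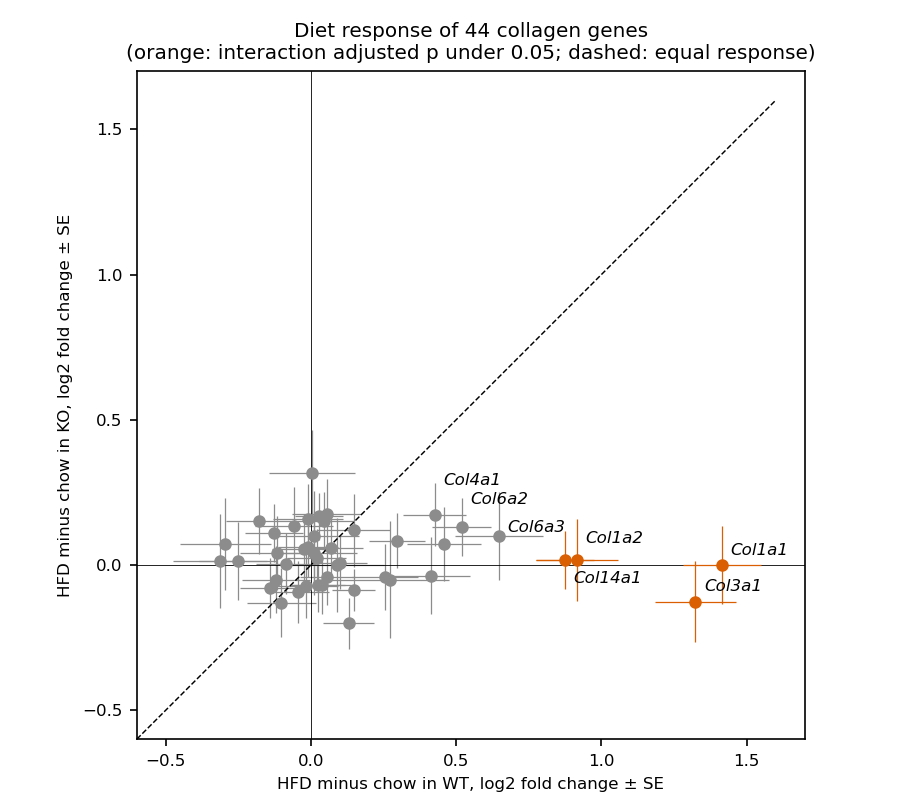
HFD minus chow log2 fold change ± SE in KO (vertical axis) against that in WT (horizontal axis), 1 point per collagen gene. Points of Col1a1, Col3a1, Col14a1 and Col1a2 lie at 0.88 to 1.42 in WT and close to 0 in KO, below the dashed line of equal response, and the axes share no arrays.

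The interaction asks whether the genotype difference on HFD differs from that on chow. It passed for 4 collagens, all negative, 9.09% of the family, where 2.1% of all genes had a negative call, 1.43% a positive one and 3.53% either. The values were -1.42 ± 0.19 for Col1a1 (adjusted p = 0.00192), -1.45 ± 0.20 for Col3a1 (adjusted p = 0.00201), -0.86 ± 0.14 for Col14a1 (adjusted p = 0.00761) and -0.90 ± 0.20 for Col1a2 (adjusted p = 0.0298). The call of Col1a2 was kept in 4 of the 12 fits without 1 array and lost without any KO HFD array, any WT chow array, or KO chow replicate 2 or 3, with an adjusted p of up to 0.0734.

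The type VI and type IV genes did not pass the interaction. Col6a3 had -0.55 ± 0.21 (adjusted p = 0.204), Col6a2 -0.39 ± 0.14 (adjusted p = 0.17), Col6a1 -0.39 ± 0.18 (adjusted p = 0.294) and Col4a1 -0.25 ± 0.15 (adjusted p = 0.448). For Col6a2, Col6a3 and Col4a1 a call in WT and none in KO is therefore not shown to be a difference between the genotypes.

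On chow, KO and WT livers gave 0 collagen calls by limma, where 0.00902% of all genes were called higher and 0% lower. At an unadjusted p under 0.05 there were 2, Col12a1 and Col1a1, 4.55% of the family, against 7.02% of all genes. The arrays did not overlap for Col1a1, Col1a2 and Col3a1, and KO was the higher group on chow, with log2 fold changes of 0.32 (adjusted p = 0.672), 0.19 and 0.21. For Col1a2 the margin was very narrow, with the lowest KO and the highest WT array on chow both at 6.80. Non-overlapping arrays with KO higher were found for 6.82% of the collagens, against 5.95% of all genes, and with KO lower for the same share, against 7.29%. The chow differences thus had the opposite sign to those on HFD for these 3 genes, without passing the test.

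Over the 4 groups, the mean of WT on HFD was the highest for 19 of the 44 collagens and for 32.8% of all genes. All 3 WT arrays on HFD were above the other 9 for 8 collagens, Col1a1, Col1a2, Col3a1, Col5a1, Col6a1, Col6a2, Col6a3 and Col14a1, and below them for 0. Over all genes the shares were 7.67% above and 5.12% below. WT replicate 1 on HFD was the single highest array for 11 of the 34 collagens above background, more than any other array. This count was not made over all genes, so it is not shown to be particular to collagens. The mean of WT on HFD was the highest for 36.7% of all genes above the background limit. The spread within a group was similar in the 4 groups. The median SD over the 34 collagens was 0.111 in KO on HFD, 0.0931 in WT on HFD, 0.12 in KO on chow and 0.111 in WT on chow.

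A collagen chain is made into a trimer and a fibre by prolyl and lysyl hydroxylases, chaperones, propeptide proteases and cross-linking enzymes. Of 28 measured genes of a list of these, 4 were lower and 1 higher in KO than in WT on HFD, where 6.62% of all genes were lower and 3.89% higher. Serpinh1, the collagen chaperone of the endoplasmic reticulum, averaged 7.41 ± 0.21 in KO and 8.19 ± 0.10 in WT on HFD (SD, n = 3 each), and 7.17 ± 0.14 in KO and 7.41 ± 0.08 in WT on chow. Its log2 fold change was -0.78 ± 0.11 for KO against WT on HFD (adjusted p = 0.00109, limma) and 0.78 ± 0.11 for HFD against chow in WT (adjusted p = 0.00186). The interaction of Serpinh1 was -0.53 ± 0.16 and did not pass (adjusted p = 0.0981 by limma), and it passed for 0 of the 28 genes. A genotype difference that depends on diet is therefore not shown for them.

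Pcolce, which speeds the removal of the procollagen tail, averaged 7.31 ± 0.16 in KO and 7.94 ± 0.16 in WT on HFD, a difference of -0.63 ± 0.12 (adjusted p = 0.00679 by limma). P4ha1, a prolyl hydroxylase subunit, gave -0.82 ± 0.24 (adjusted p = 0.0495 by limma), and Plod2, a lysyl hydroxylase near background, gave -0.40 ± 0.12 (adjusted p = 0.0465 by limma). Bmp1, a protease that cuts the tail itself, was the higher gene, at 0.31 ± 0.09 (adjusted p = 0.0454 by limma). Leaving out single arrays ended the calls of P4ha1 in 7 of 12 fits, Plod2 in 11 and Bmp1 in 10, with adjusted p of up to 0.161, 0.168 and 0.154, and those of Serpinh1 and Pcolce in 0. On HFD against chow in WT, Serpinh1, Pcolce and Plod2 were higher and none of the 28 was lower. Of all genes, 4.02% were higher and 2.94% lower in that contrast. The Pcolce and Plod2 diet calls ended in 4 and 5 of the 12 fits, all without a WT array. The cross-linking oxidases Lox (-0.27 ± 0.15, adjusted p = 0.307) and Loxl1 (-0.44 ± 0.20, adjusted p = 0.207) did not pass between KO and WT on HFD.

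**Figure D4:**
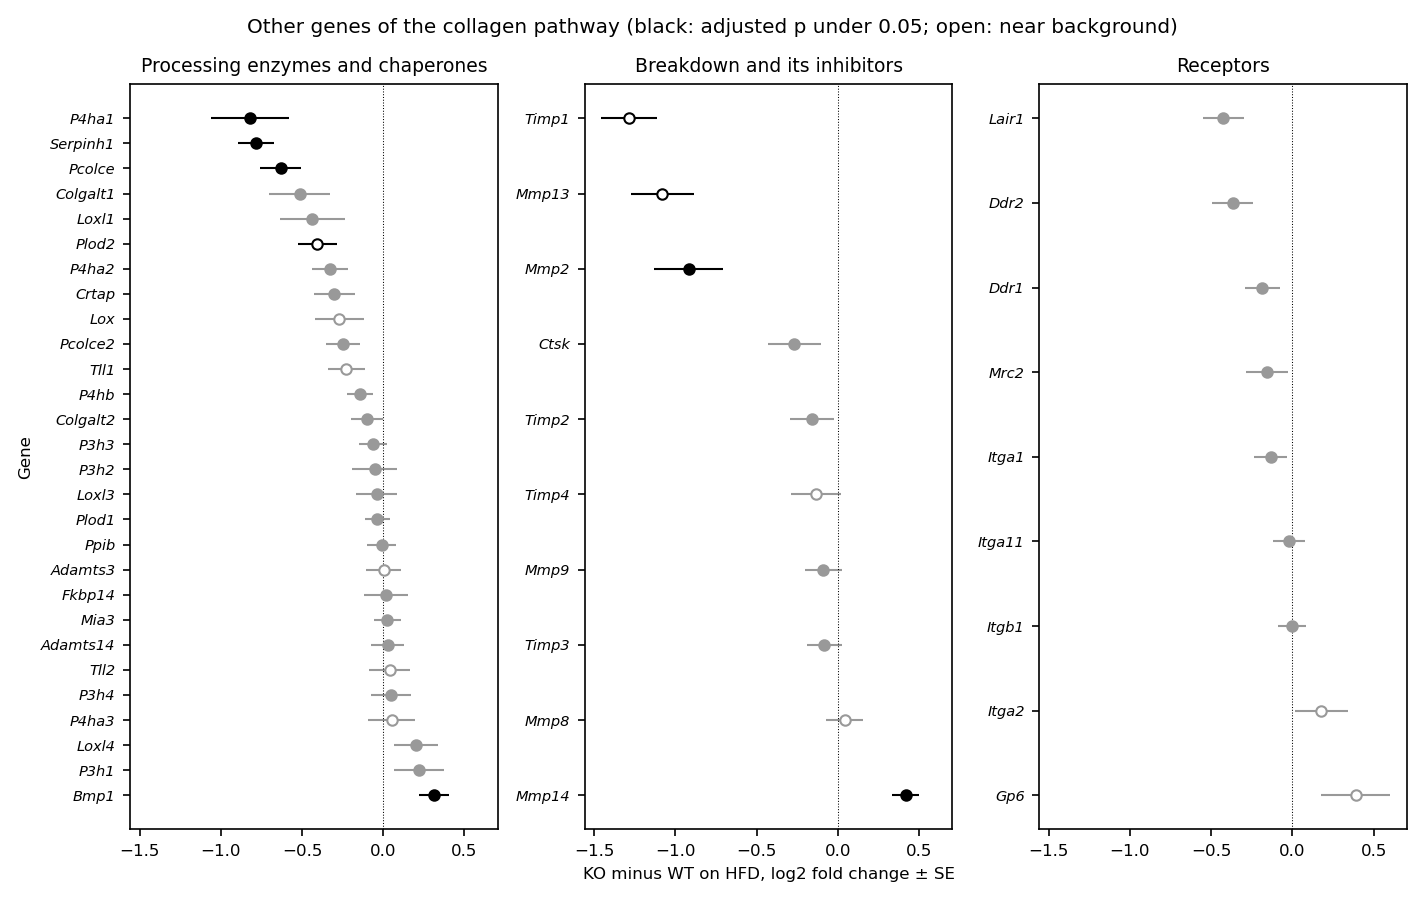
KO minus WT log2 fold change on HFD ± SE (horizontal axis) of the other genes of the collagen pathway, in panels for processing, breakdown and receptors. Black symbols passed an adjusted p of 0.05 and open ones are near background; Timp1, Mmp13, Mmp2, P4ha1 and Serpinh1 lie farthest to the left.

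Of 10 genes for collagen breakdown, 3 were lower and 1 higher in KO than in WT on HFD, to be read against the same shares of all genes, 6.62% and 3.89%. Timp1, a metalloprotease inhibitor, gave -1.29 ± 0.17 (adjusted p = 0.000632 by limma), Mmp13, a collagenase, -1.08 ± 0.20 (adjusted p = 0.00404 by limma) and Mmp2, a gelatinase, -0.92 ± 0.21 (adjusted p = 0.0157 by limma). Timp1 and Mmp13 are near background by their mean over all arrays. Mmp14, a membrane collagenase, was higher at 0.42 ± 0.08 (adjusted p = 0.00794 by limma). These 4 moved the opposite way on HFD against chow in WT livers, and that contrast shares the WT HFD arrays with the genotype contrast. Mmp14 had a similar genotype difference on chow without passing, at 0.39 ± 0.08 (adjusted p = 0.269 by limma). Its interaction was 0.03 ± 0.12 (adjusted p = 0.942 by limma), so its difference is not shown to depend on diet. That of Mmp13 did not pass either (-0.99 ± 0.28, adjusted p = 0.0769 by limma). Timp1 and Mmp2 passed the interaction, and the interaction call of Mmp2 ended in 8 of the 12 fits without 1 array. Without KO HFD replicate 1 the genotype call of Mmp2 ended (adjusted p = 0.0561), and the diet call of Mmp14 ended in 8 of the 12 fits without 1 array, with an adjusted p of up to 0.135.

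Of 9 measured collagen receptors, 0 passed between KO and WT on HFD by limma. The nearest was Lair1, an inhibitory receptor of leukocytes, at -0.43 ± 0.13 (adjusted p = 0.0521), which passed for HFD against chow in WT at 0.58 ± 0.13 (adjusted p = 0.0172). That call ended without WT HFD replicate 1 or 3 or WT chow replicate 3, with an adjusted p of up to 0.0654. Ddr2, a receptor kinase for fibrillar collagen, gave -0.37 ± 0.13 (adjusted p = 0.0898) between KO and WT on HFD.

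Markers of the cells that could hold collagen RNA were set beside these values, and their counts stand against 6.62% of all genes lower and 3.89% higher in KO than in WT on HFD. All 6 hepatocyte markers lay above the background limit, with summed linear signals of 80004 to 83741 in KO and 79592 to 80251 in WT on HFD. Of these, 1 was higher in KO than in WT on HFD, Cps1, the entry enzyme of the urea cycle, at 0.36 ± 0.07 (adjusted p = 0.00882 by limma). In bulk liver fewer cells of a type and less RNA per cell cannot be told apart.

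Of 10 stellate cell markers, 1 was lower in KO than in WT on HFD and 0 were higher: Lrat, which stores vitamin A as esters, at -0.93 ± 0.10 (adjusted p = 0.000174 by limma). The remaining 9 did not pass and had both signs. The smallest p among them belonged to Ecm1 (0.30 ± 0.11, adjusted p = 0.118), Ngfr (-0.31 ± 0.12, adjusted p = 0.131) and Rgs5 (0.39 ± 0.18, adjusted p = 0.21), while Dcn (-0.06 ± 0.09, adjusted p = 0.741) and Pdgfrb (-0.14 ± 0.12, adjusted p = 0.517) were nearer to 0. The summed linear signal of the 10 was 11632 to 12678 in KO and 11606 to 12064 in WT on HFD, but Dcn and Ecm1 alone made up 72.2% to 76.4% of it on the 12 arrays, so the sum says little of the other markers. On HFD against chow in WT, Lrat was higher, at 0.44 ± 0.10 (adjusted p = 0.0213 by limma), a call that ended without WT HFD replicate 1 or 2 or WT chow replicate 1 or 3.

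The portal fibroblast and myofibroblast list had 1 lower gene of 8 in KO against WT on HFD, Cd34, whose call ended in 5 of the 12 fits without 1 array, each without a KO or WT array on HFD. Its sums were 1078 to 1587 in KO and 1318 to 2154 in WT on HFD. Of 7 markers of sinusoidal endothelium 1 was lower, Lyve1, a hyaluronan receptor, at -1.35 (adjusted p = 0.0346 by limma), and leaving out any KO or WT array on HFD ended that call. Kdr, a receptor for vascular endothelial growth factor on the same list, had the opposite sign, at 0.34 ± 0.11 (adjusted p = 0.078 by limma). It was lower on HFD than on chow in WT, at -0.41 ± 0.11 (adjusted p = 0.0446 by limma), a call kept in 3 of the 12 fits without 1 array. The endothelial sums did not overlap on HFD, at 9123 to 9733 in KO and 10241 to 10670 in WT. On chow they were 10028 to 10359 in KO and 9403 to 10732 in WT. Cholangiocyte sums were apart in the other direction, at 522 to 558 in KO and 452 to 486 in WT on HFD. On chow they were 391 to 480 in KO and 387 to 710 in WT, so the WT chow range enclosed both HFD ranges. Of the 5 cholangiocyte markers 0 passed between KO and WT on HFD.

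Most recruited macrophage markers had the direction of Col1a1, Col1a2, Col3a1 and Col14a1, not of the collagen family as a whole, and 4 of the 6 markers lay above the background limit. Of 6, 4 were lower in KO than in WT on HFD, Mmp12, Gpnmb, Trem2 and Ccr2. Itgax had the same sign without passing (-0.42 ± 0.13, adjusted p = 0.0639), and Cd9, which other cells also express, had the opposite sign (0.34 ± 0.10, adjusted p = 0.0564). On HFD against chow in WT, 5 were higher and Cd9 was lower, at -0.47 ± 0.10 (adjusted p = 0.0178 by limma). Of all genes, 4.02% were higher and 2.94% lower in that contrast. Leaving out single arrays ended the diet calls of Cd9 in 5 of 12 fits, Itgax in 2 and Ccr2 in 1. The sums of the 6 did not overlap on HFD, at 497 to 541 in KO and 691 to 1015 in WT. On chow the sums were 471 to 526 in KO and 464 to 533 in WT. Of 6 Kupffer cell markers 0 passed between KO and WT on HFD, with 5 negative and a median log2 fold change of -0.37. Of all 22180 genes, 11042 were negative, with a median of 0.00114. All 6 Kupffer cell markers were positive for HFD against chow in WT, as were 11254 of all genes, and 0 of the 6 passed. The Kupffer cell sums overlapped on HFD, at 4897 to 6341 in KO and 5361 to 7463 in WT. Mesothelial markers, which could stem from the liver capsule, had 2 lower of 3, Msln and Upk3b, whose calls each ended without KO HFD replicate 2 or 3 or WT HFD replicate 1 or 3, with sums of 176 to 249 in KO and 254 to 371 in WT on HFD. On chow the mesothelial sums overlapped, at 191 to 273 in KO and 235 to 301 in WT. Summed over the 34 collagens above background, signals were 4295 to 4662 in KO and 5304 to 5938 in WT on HFD, and 4485 to 4623 in KO and 4033 to 4541 in WT on chow. The brightest probe sets weigh most in such a sum, so it does not describe the family as a whole. For KO against WT on HFD the median log2 fold change of these 34 genes was -0.02. The part of macrophages or of mesothelium in the collagen values was not tested.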

How the data were processed

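Liver RNA of 12 mice was measured, 1 array each, in 4 groups of 3. The deposited table holds log2 signals of 41345 probe sets, and the submitters' processing notes name the package oligo. Its version, the normalization and the genome build were not given in the sources used here. Values ran from 1.40 to 14.36 and were used as deposited.

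Probe sets with exactly 1 symbol in the array annotation (23521, of which 23328 matched RefSeq by gene number) gave 22180 genes, 1 probe set each, the one with the highest mean. The 17824 others were left out, 1 of them naming Col6a1 together with other genes. All 12 arrays were fitted with limma 3.58.1 in R 4.3.3 (lmFit, eBayes, 4 group means), with Benjamini-Hochberg adjustment within each of the 5 comparisons. No filter on dim genes was used. P-values measure the spread between mice, and 3 per group limit the precision.

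The members, gene lists and tests were chosen with earlier results of these data known. Every collagen may be named. Values on all arrays are given for collagens called in any comparison and for a list of liver collagens. From other lists, called members and up to 4 with the smallest p are named, with examples. Ranges over arrays use every array of a group.

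In simulated data for KO against WT on HFD, 21980 of the 22180 genes had a log2 fold change of 0. At a change of 0.5, 37.3% (25 of 67) were recovered, at 1 it was 89.6% (60 of 67) and at 2 100% (66 of 66). In the measured data 2331 of 22180 genes were called. The adjusted p depends on how many genes change, so these shares do not apply to the measured comparison. Recovery in the measured comparison was not tested. The alternatives tried were a replicate block, trend and robust eBayes, array weights, quantile normalization, median centring, genes above the median signal, other probe set rules, the compared arrays alone, and leaving out each array.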

Additional observations from a re-analysis of the deposited data

Results flagged for a closer look

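For 4 collagens the KO minus WT difference on HFD differed from that on chow by the interaction test of limma (Benjamini-Hochberg adjusted p under 0.05 over all genes). The differences of the log2 fold changes were -1.42 for Col1a1, -1.45 for Col3a1, -0.86 for Col14a1 and -0.90 for Col1a2. In each of the 4 the 3 WT arrays on HFD lay above all other 9 arrays, and those arrays also stand apart over all genes.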

How the results depend on the processing

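Over 208 alternative counts of collagens called, 192 were equal to or within 1.5 times the count reported and 16 moved. Several of the counts reported were 0, and a count of 0 in both fits was taken as equal. Of 352 values of called genes, 299 kept direction and call, 53 lost the call and 0 changed sign. A fold change could not move in settings that altered only the variance estimate or left out arrays of groups not compared. The calls of Col1a1, Col3a1, Col14a1 and Col1a2 for KO against WT on HFD and for HFD against chow in WT held in all settings run. The count of collagens higher in KO than in WT on HFD, 1 as reported (Col2a1), was 0 with array weights, with quantile normalization, with only the compared arrays, and with only genes above the median signal, where 18 collagens were tested and Col2a1 was not among them. With group means removed, 18 same-number pairs of arrays from different groups had correlations of -0.06 to 0.08, and 36 different-number pairs had -0.13 to 0.16. Whether mice of the same number shared a batch cannot be told from these values. The replicate block gave 0 higher and 4 lower for KO against WT on HFD, 6 higher for HFD against chow in WT, and 3 for the interaction. It ended the calls of Col2a1 and Col6a3 on HFD, Col4a1 for diet in WT and Col1a2 for the interaction (adjusted p = 0.0537 by limma). Without 1 array, the counts were 0 to 1 higher and 4 to 6 lower for KO against WT on HFD, 5 to 7 higher and 0 to 1 lower for HFD against chow in WT, 3 to 4 negative interactions, and 0 to 0 for the other 2 comparisons. The shares of all genes called moved too: without 1 array they were 2.36% to 3.92% higher and 4.4% to 6.56% lower for KO against WT on HFD, 2.23% to 4.4% higher and 1.43% to 3.22% lower for HFD against chow in WT, and 0.73% to 1.42% positive and 1.19% to 1.98% negative for the interaction. Under the other settings, which include fewer genes tested, they were 2.67% to 10.5% and 4.86% to 15.8%, 2.84% to 10.9% and 1.94% to 9.04%, and 1.11% to 5.27% and 1.65% to 7.3%, in the same order. For KO against WT on chow and for HFD against chow in KO these shares reached at most 0.0361% and 0.334% higher, and 0.135% and 0.784% lower. The cause of these changes was not tested. For the 10 collagens near background, low signal limits what can be measured.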
